A study of Gasterosteus aculeatus with 36 samples.

Results

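The genes described here are 101 transcription factor genes of the homeobox and paired box type outside the Hox clusters, followed in whole threespine stickleback (*Gasterosteus aculeatus*) from early somite formation to larvae 8 days after hatching. They were taken from the table of normalized counts by name, as genes whose symbol begins with *pax*, *lhx*, *irx*, *dlx*, *otx*, *emx*, *nkx*, *barhl*, *meis*, *pbx*, *tlx*, *vsx*, *gbx*, *phox2*, *prrx* or *alx*, or with the *isl*, *pou* or sine oculis homeobox stem (as in *six3a*) and a digit. Of 107 such symbols in a table of 24388 genes, 6 were left out because they name other proteins or a pituitary factor (*paxbp1*, *paxip1*, *paxx*, *pbxip1a*, *pbxip1b* and *pou1f1*). The rule uses names and no measured value. All 101 members passed the filter on low counts, as did 22168 of 25258 genes in the table of counts.

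RNA was sequenced from 36 single fish in 12 groups of 3, females and males of 6 stages: the embryonic stages 17, 20 and 23, larvae on the day of hatching (0 days post hatching, dph), and larvae of 4 and 8 dph. The fish of all groups were wild type and untreated, and were reared in the laboratory from marine populations from Port Gardner Bay (Washington) and the Pacific coast of Japan. Which of these gave the sequenced fish is not given in the sources used here, nor is the clutch of each fish, so p-values measure only the spread between these fish. Counted reads per fish ranged from 8637205 to 52089185 with a median of 23246848. The members drew 17290 to 138570 of those reads in a fish. RNA was taken from the whole animal, so fewer cells that express a gene and less RNA of that gene per cell cannot be told apart.

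Homeobox proteins bind DNA and set up the regions and cell types of the body. LIM homeobox, Irx, Nkx, Pou and Vsx proteins divide the brain, spinal cord and eye into domains and then select neuron types, Dlx, Alx and Prrx proteins act in the face, jaws and fins, and Pax and sine oculis homeobox proteins act in sense organs, muscle and kidney. Meis and Pbx proteins bind DNA together with Hox proteins and with other homeobox proteins. Many genes of these families exist in bony fish as a and b duplicates from an ancient doubling of the genome.

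Values per fish are the authors' normalized counts, which are reads divided by a size factor for each fish. They are given as the median of the 6 fish of a stage with the lowest and the highest fish. They are not divided by transcript length, so levels are compared between stages of one gene and not between genes. Changes between stages are log2 fold changes from edgeR's quasi-likelihood test on the counts. A gene was called when its Benjamini-Hochberg adjusted p over all 22168 genes was below 0.05. The test gives no standard error. The SE printed here is the absolute log2 fold change divided by the square root of the test's F value. It is approximate and can be too small where a stage has few reads. Positive values mean a higher level at the later stage.

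Of the 101 members, 100 were called for a difference among the 6 stages. This share stands beside 96.8% of all genes tested, so it does not set the members apart. The stage with the highest mean was stage 17 for 30 members (29.7%, against 32.5% of all genes tested), stage 20 for 24 (against 9.61%) and stage 23 for 31 (30.7%, against 6.83%). It was 0 dph for 8 members (7.92%, against 9.93%), 4 dph for 6 (5.94%, against 13.6%) and 8 dph for 2 (1.98%, against 27.5%). The 2 members highest at 8 dph were *six3a* and *nkx6.3*, of which *six3a* was the member not called among stages (adjusted p = 0.0551). These shares are a description without a test. Together the members took a median of 0.198% of a fish's counted reads at stage 17 (0.186% to 0.219%), 0.251% at stage 20 (0.241% to 0.283%) and 0.286% at stage 23 (0.266% to 0.303%). They took 0.17% at 0 dph (0.162% to 0.182%), 0.152% at 4 dph (0.136% to 0.16%) and 0.132% at 8 dph (0.118% to 0.148%). The fish of stage 23 and those of 0 dph did not overlap in this share.

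**Figure D1:**
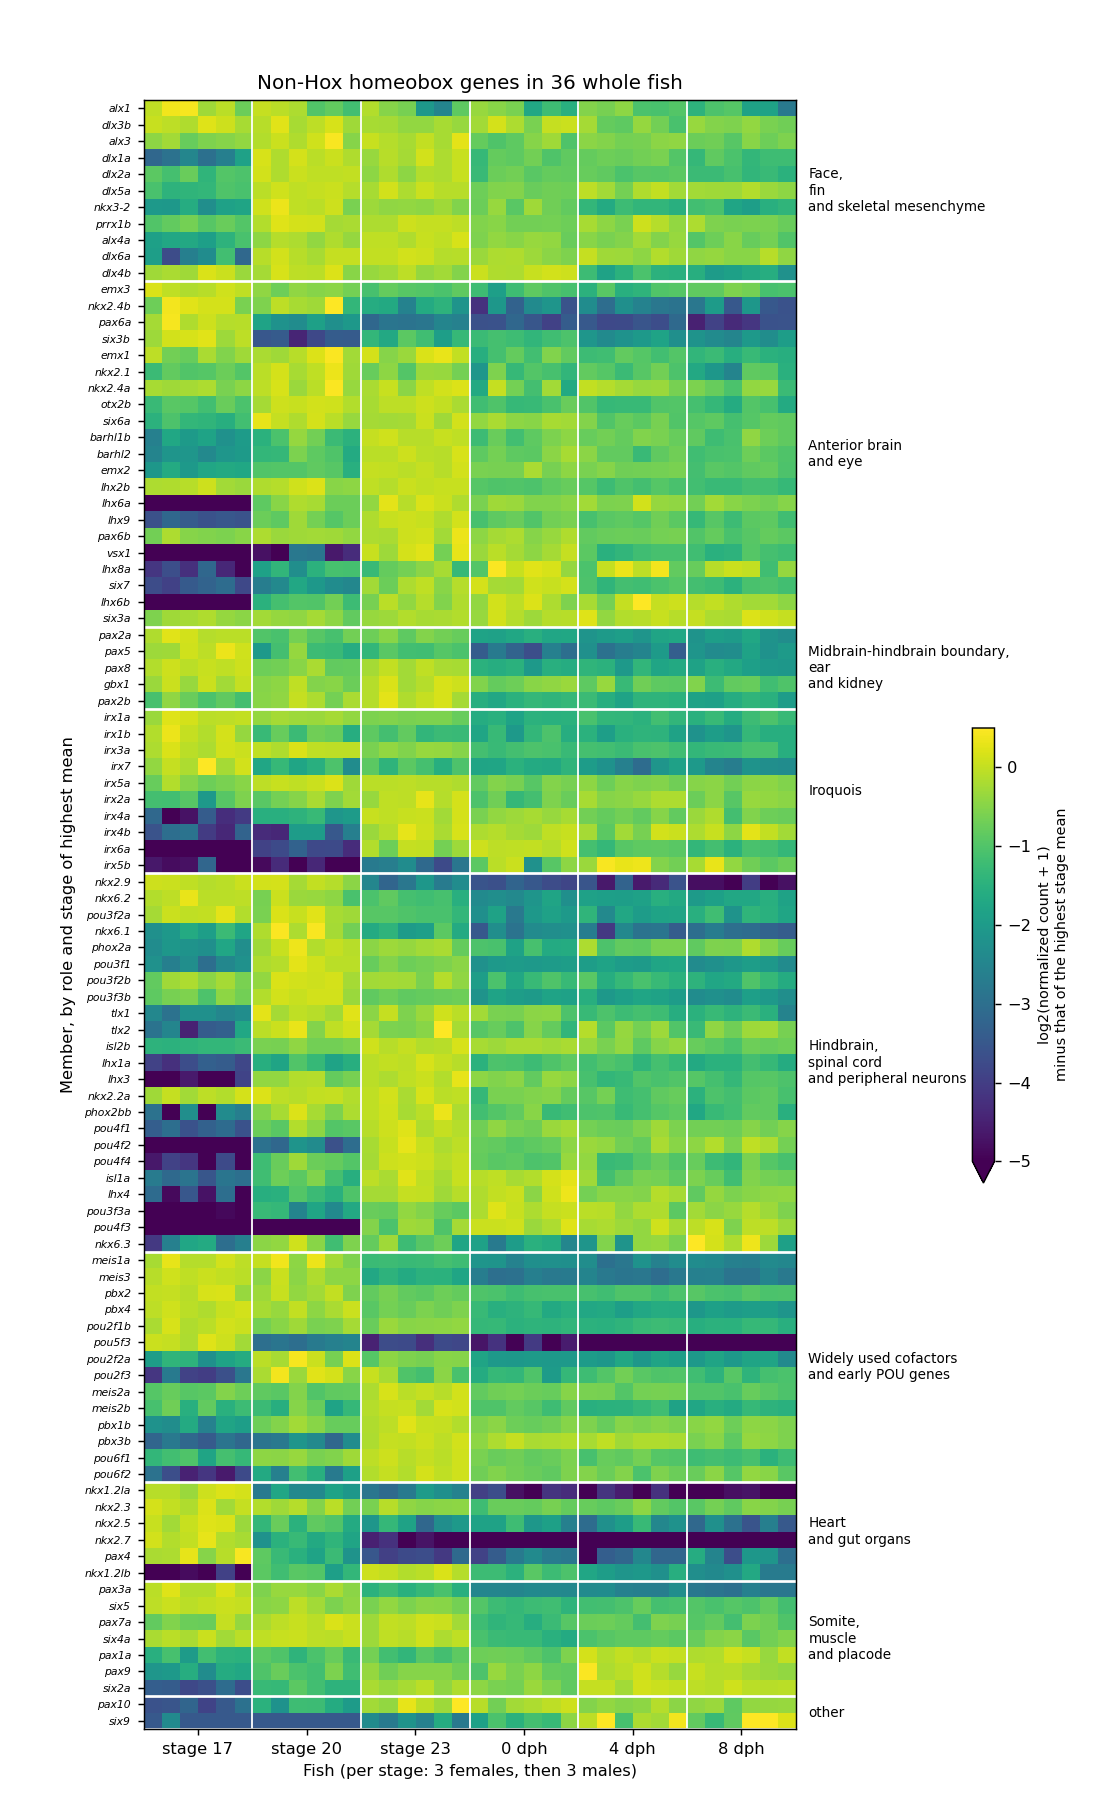
99 of the 101 members in the 36 fish (along the bottom, 6 a stage, females before males). Members are listed down the side, grouped by role lists that go by the start of the symbol, and ordered by the stage of their highest mean. Colour is log2(normalized count + 1) minus the same of the highest stage mean of a gene, which lies at stage 17 for 29 of those drawn, at stage 20 for 23, at stage 23 for 31 and at 0, 4 or 8 dph for the others.

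Between stage 17 and stage 20 most members rose. Of 101 members 81 were called, beside 64.3% of all genes. Of them 58 rose, while 34.3% of all genes did, and 23 fell, while 30.1% of all genes did. The median log2 fold change was 0.59 over the members and 0.01 over all genes, and 52 members changed by 2-fold or more (28.5% of all genes). The role lists counted here and below go by the start of the symbol, so a count for a list is not a result for its tissue. That of hindbrain, spinal cord and peripheral neurons holds *pou4f2*, *pou4f3* and *nkx6.3*, described below by other tissues. The same holds for *dlx3b* and *dlx4b* in that of face, fin and skeletal mesenchyme. Of the genes of hindbrain, spinal cord and peripheral neurons 18 of 23 rose and 1, *nkx6.2*, fell. Of the genes of the anterior brain and eye 15 of 22 rose and 3 fell (*emx3*, *pax6a* and *six3b*), and of those of face, fin and skeletal mesenchyme 8 of 12 rose and 2 fell. Of the cofactors and early POU genes 6 of 14 rose and 4 fell, of the Iroquois genes 4 of 10 rose and 3 fell, and of the genes of somite, muscle and placode 4 of 7 rose and 2 fell. In the list of the midbrain-hindbrain boundary, ear and kidney *pax2b* rose and 3 of 5 fell (*pax2a*, *pax5* and *pax8*).

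The 3 largest rises by the fitted log2 fold change were those of *lhx6a*, *lhx6b* and *pou3f3a*. *lhx6a*, which acts in inhibitory neurons of the ventral forebrain in mice, had a median of 0 at stage 17 (0 to 2.80), on 5 reads in 6 fish, and of 116 at stage 20 (96.4 to 158). Its log2 fold change was 7.98 (SE 0.33, adjusted p = 2.85e-18 by edgeR). Its duplicate *lhx6b* had 2 reads in all at stage 17 and a median of 80.4 at stage 20 (58.9 to 105). The ratio of its summed levels was 188, with a 95% interval of 51.8 to 1560 for counting error only. *pou3f3a*, a POU factor of the developing brain and kidney, was read 3 times in 1 of the 6 fish at stage 17 and not in the others, and had a median of 35.03 at stage 20 (19.9 to 48.2), a ratio of 57.6 (19.4 to 282). No fish of stage 17 reached the lowest fish of stage 20 in any of these genes.

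Other members were lower at stage 17 than at stage 20. *lhx3*, which acts in motor neurons and the pituitary, went from 11.7 (5.60 to 31.1) to 365 (273 to 445), without overlap, a log2 fold change of 4.84 (SE 0.20). The retinal ganglion cell factor *pou4f2* went from 4.71 (0 to 11.1) to 88.2 (55.8 to 158), without overlap, a change of 4.24 (SE 0.31). *phox2bb*, a factor of autonomic and cranial motor neurons, changed by 2.88 (SE 0.31), *isl1a*, an early marker of motor and sensory neurons, by 2.08 (SE 0.17), and *tlx2* by 3.17 (SE 0.32). The markers of neurons measured beside them, 10 genes such as *elavl3* and *stmn2a*, rose as well in 10 of 10 (34.3% of all genes rose). Their summed level went from 5340 (4890 to 5850) to 26500 (24900 to 33600). Other marker lists moved too. Of 9 skeletal muscle markers 9 rose, and of 8 neural progenitor markers 5 rose and 1 fell. Of 9 photoreceptor markers 3 rose, and of 13 genes of dividing cells 4 fell. No marker of these lists was at 0, and the part of these shifts in the members' rise was not tested.

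Among the largest falls from stage 17 to stage 20 were those of *six3b* and *pou5f3*. *six3b*, which sets up the most anterior forebrain and the eye field, went from 603 (473 to 694) to 51.9 (26.1 to 54.3), a log2 fold change of -3.62 (SE 0.17, adjusted p = 9.82e-18). Stage 20 was the lowest stage of this gene, which stood at 232 (155 to 315) at stage 23. *pou5f3*, the fish relative of the pluripotency factor Oct4, went from 336 (272 to 384) to 46.3 (39.9 to 56.6), a change of -2.79 (SE 0.23). The stages did not overlap in either gene. Of the 6 genes listed for heart and gut organs 5 fell (30.1% of all genes did), among them *nkx2.5* (-1.16, SE 0.27) and *nkx2.7* (-1.63, SE 0.29), which act in heart progenitors in zebrafish. The gene of that list that rose was *nkx1.2lb* (4.38, SE 0.33). The Nkx1-2 gene of mice is known from the posterior neural plate and not from the heart or gut.

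**Figure D2:**
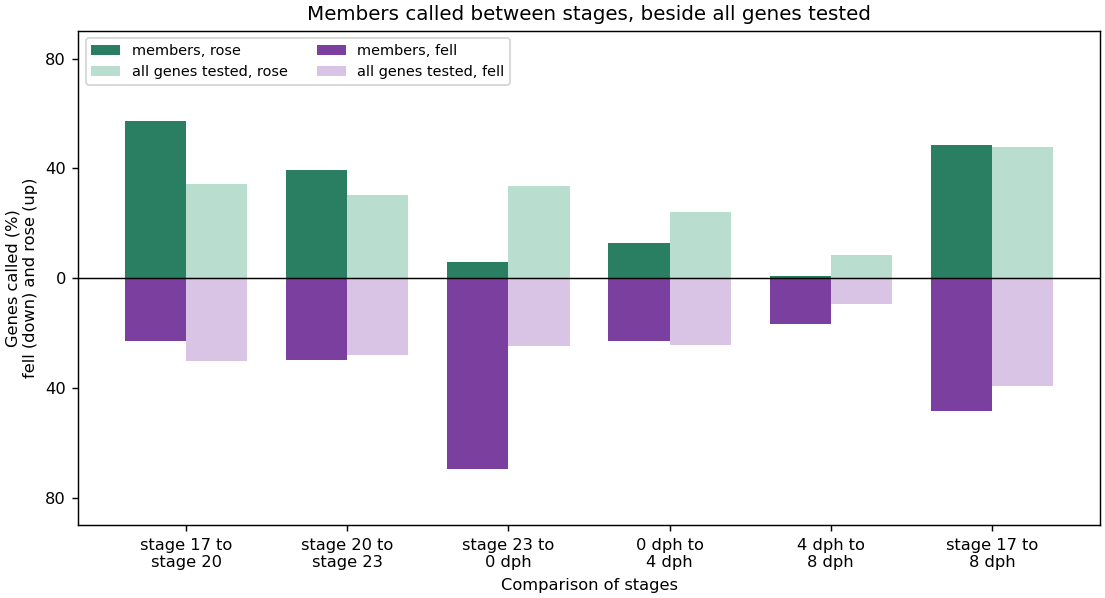
Percent of genes that rose (bars up) and fell (bars down) in each comparison of stages, for the 101 members (dark) and for all 22168 genes tested (light). The members' fall from stage 23 to 0 dph stands at 69.3%, beside 24.7% of all genes.

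From stage 20 to stage 23 members moved both ways. Of 101 members 70 were called (58.3% of all genes), 19 of them with a rise of 2-fold or more (15.9% of all genes) and 11 with a fall of that size (4.22% of all genes). Of the 70 called 40 rose (30.2% of all genes) and 30 fell (28.1% of all genes). The median log2 fold change was -0.02 against 0.01 over all genes, and 0.00 against 0.04 with median-of-ratios scaling. By list, 11 of 22 genes of the anterior brain and eye rose and 5 fell, 10 of 23 of hindbrain, spinal cord and peripheral neurons rose and 7 fell, and 6 of 14 cofactors and early POU genes rose and 7 fell. Of the Iroquois genes 5 of 10 rose and 2 fell, and of face, fin and skeletal mesenchyme 1 of 12 rose (*alx4a*) and 4 fell. *pou4f3*, required for inner ear hair cells in mice, had a median of 0.767 at stage 20 (0 to 3.09) and of 116 at stage 23 (75.1 to 133), a log2 fold change of 6.40 (SE 0.36, adjusted p = 3.89e-15). This value rests on 6 reads in all at stage 20 and was 8.13 without the third male of that stage. *vsx1*, a factor of retinal bipolar cells, went from 68.3 (38.3 to 218) to 1616 (976 to 1879), a change of 3.79 (SE 0.28). *irx6a*, an Iroquois gene known from retinal bipolar cells in mice, went from 44.7 (30.9 to 64.4) to 535 (379 to 636), a change of 3.52 (SE 0.15). All fish of stage 23 lay above all fish of stage 20 in these 3 genes.

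*six7*, which acts in cone photoreceptors of zebrafish, changed by 1.94 (SE 0.14), from 155 (125 to 245) to 693 (482 to 790), without overlap. *six9* was not read in any fish of stage 20 and gave 12 reads in all at stage 23. Set against a floor of 3 reads over the 6 fish of stage 20, this gives a ratio of 2.07. The counting error of the 12 reads is not included in that ratio. The cofactor *pbx3b* changed by 2.54 (SE 0.13), from 329 (219 to 452) to 1987 (1741 to 2153), without overlap. Among its relatives *pbx1b* rose by 0.55 (SE 0.11), while *pbx2* and *pbx4* changed by -0.57 (SE 0.10) and -0.53 (SE 0.08). *meis2a* and *meis2b* rose by 0.79 (SE 0.08) and 1.11 (SE 0.17) while *meis1a* and *meis3* changed by -1.21 (SE 0.14) and -1.31 (SE 0.10).

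The 3 largest falls were those of *nkx2.7*, *nkx2.9* and *pax4*. *nkx2.7* went from 30.3 (19.3 to 36.8) to 2.24 (1.72 to 3.99), a log2 fold change of -3.55 (SE 0.36, adjusted p = 1.09e-09). *nkx2.9*, a gene of the floor of the neural tube, went from 167 (126 to 192) to 28.2 (17.9 to 40), a change of -2.55 (SE 0.20). *pax4*, known from endocrine cells of the mammalian pancreas, went from 16.8 (9.26 to 24.6) to 2.48 (1.72 to 4.31), a change of -2.52 (SE 0.38). *nkx6.1*, which acts in progenitors of motor neurons, changed by -1.58 (SE 0.24). The stages did not overlap in *nkx2.7*, *nkx2.9* and *pax4*.

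Between stage 23 and hatching most members fell. Of 101 members 76 were called (58.4% of all genes) and 27 changed by 2-fold or more (18.5% of all genes). Of the 76 called 70 fell, while 24.7% of all genes did, and 6 rose, while 33.7% of all genes did. The median log2 fold change was -0.63 over the members and 0.08 over all genes. A fall of 2-fold or more was seen in 24 members, with 3.55% of all genes. All 5 genes of the midbrain-hindbrain boundary, ear and kidney fell, as did 13 of 14 cofactors and early POU genes and 18 of 23 genes of hindbrain, spinal cord and peripheral neurons. Of the genes of the anterior brain and eye 13 of 22 fell, of face, fin and skeletal mesenchyme 6 of 12, and of the Iroquois family 6 of 10. Of somite, muscle and placode 5 of 7 fell. In the list of heart and gut organs 4 of 6 fell (*nkx1.2la*, *nkx1.2lb*, *nkx2.3* and *nkx2.7*). As said above, the Nkx1-2 gene of mice is not known from these organs.

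The largest fall was that of *pax5*, which like *pax2a*, *pax2b* and *pax8* acts at the midbrain-hindbrain boundary, a signalling centre of the brain. It went from 68.0 (57.1 to 79.0) to 16.1 (10.6 to 23.6), a log2 fold change of -2.00 (SE 0.23, adjusted p = 1.7e-08). *pax2b* went from 514 (447 to 637) to 194 (163 to 209), a change of -1.46 (SE 0.13), and *pax8* from 336 (323 to 387) to 133 (95.4 to 139), a change of -1.44 (SE 0.12). *pax2a* changed by -1.06 (SE 0.11) and *gbx1*, which marks the hindbrain side of this boundary, by -0.54 (SE 0.14). The stages did not overlap in *pax5*, *pax2b* and *pax8*. Of this list *pax5* alone stood higher again at 8 dph than at 0 dph in every fish, at 32.1 (28.2 to 40.8), although neither of the steps between those stages was called (0.47, SE 0.25, and 0.41, SE 0.24).

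Other lists held falls of like size at hatching. *pou3f1*, a POU factor of neural progenitors and Schwann cells, went from 2225 (1976 to 2478) to 837 (724 to 881), without overlap, a change of -1.42 (SE 0.10). *lhx1a*, of spinal interneurons and the kidney, went from 1392 (1340 to 1597) to 681 (506 to 774, without overlap), a change of -1.10 (SE 0.12). *nkx1.2la* went from 22.0 (15.9 to 35.8) to 6.68 (2.65 to 10.2), a change of -1.82 (SE 0.38), and *nkx2.7* changed by -1.90 (SE 0.60) on 26 reads in all at stage 23 and 4 at 0 dph, and by -3.13 without the second female of 0 dph. *six4a*, which acts in muscle and placodes, went from 868 (730 to 967) to 367 (289 to 429), a change of -1.25 (SE 0.08). Its stages did not overlap. *pax7a* and *pax3a*, factors of muscle precursors and of the dorsal neural tube, changed by -1.19 (SE 0.12) and -1.09 (SE 0.10).

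The members that rose at hatching included *irx5b*, *six9*, *lhx8a*, *pou3f3a* and *pou4f3*. *irx5b* went from 7.75 (3.44 to 11.1) to 37.7 (11.9 to 62.3), a log2 fold change of 2.39 (SE 0.36, adjusted p = 1.22e-06), without overlap. *six9* went from 1.005 (0.616 to 2.58) to 3.74 (2.07 to 7.17), a change of 1.62 (SE 0.47), and the stages overlapped. *lhx8a*, a gene of ventral forebrain neurons that is often expressed with *lhx6*, changed by 0.77 (SE 0.29), *pou3f3a* by 0.69 (SE 0.19) and *pou4f3* by 0.54 (SE 0.20). *six7* and *vsx1*, both of the retina, were not called and had values of 0.28 (SE 0.13) and -0.20 (SE 0.24).

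Genes of proteins linked to these factors, called partner genes here, were counted beside them. They were *eya* and *dach* cofactors of sine oculis homeobox proteins and *ldb*, *lmo* and *ssbp* genes linked to LIM homeobox proteins. *tle* corepressors and *pknox* relatives of Meis were counted too. Of 21 measured partner genes 18 fell at hatching (24.7% of all genes) and 1, the blood cell factor *lmo2*, rose (33.7% of all genes). *eya1* changed by -1.01 (SE 0.11), *ssbp4* by -0.84 (SE 0.10) and *tle2a* by -0.82 (SE 0.10). Marker genes of several cell types moved in the same interval. The summed level of 9 skeletal muscle markers went from 185000 (128000 to 224000) at stage 23 to 635000 (557000 to 805000) at 0 dph. Of the 9, 7 rose and 2 fell, *myod1* (-0.97, SE 0.17) and *myog* (-1.56, SE 0.16). The summed level of 13 genes of dividing cells went from 25100 (22200 to 31200) to 14000 (12300 to 15600), and all 13 fell. That of 8 neural progenitor markers went from 16400 (15100 to 17700) to 13200 (11800 to 14600), and 7 fell while *fabp7a* rose (0.75, SE 0.12). That of 10 neuron markers went from 38400 (34700 to 41500) to 26300 (25300 to 28700), with 2 called higher and 5 lower, and all 9 photoreceptor markers rose, from a sum of 1430 (932 to 1770) to 20800 (13100 to 23100). No marker of these lists was at 0, and the part of these shifts in the members' fall was not tested.

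**Figure D3:**
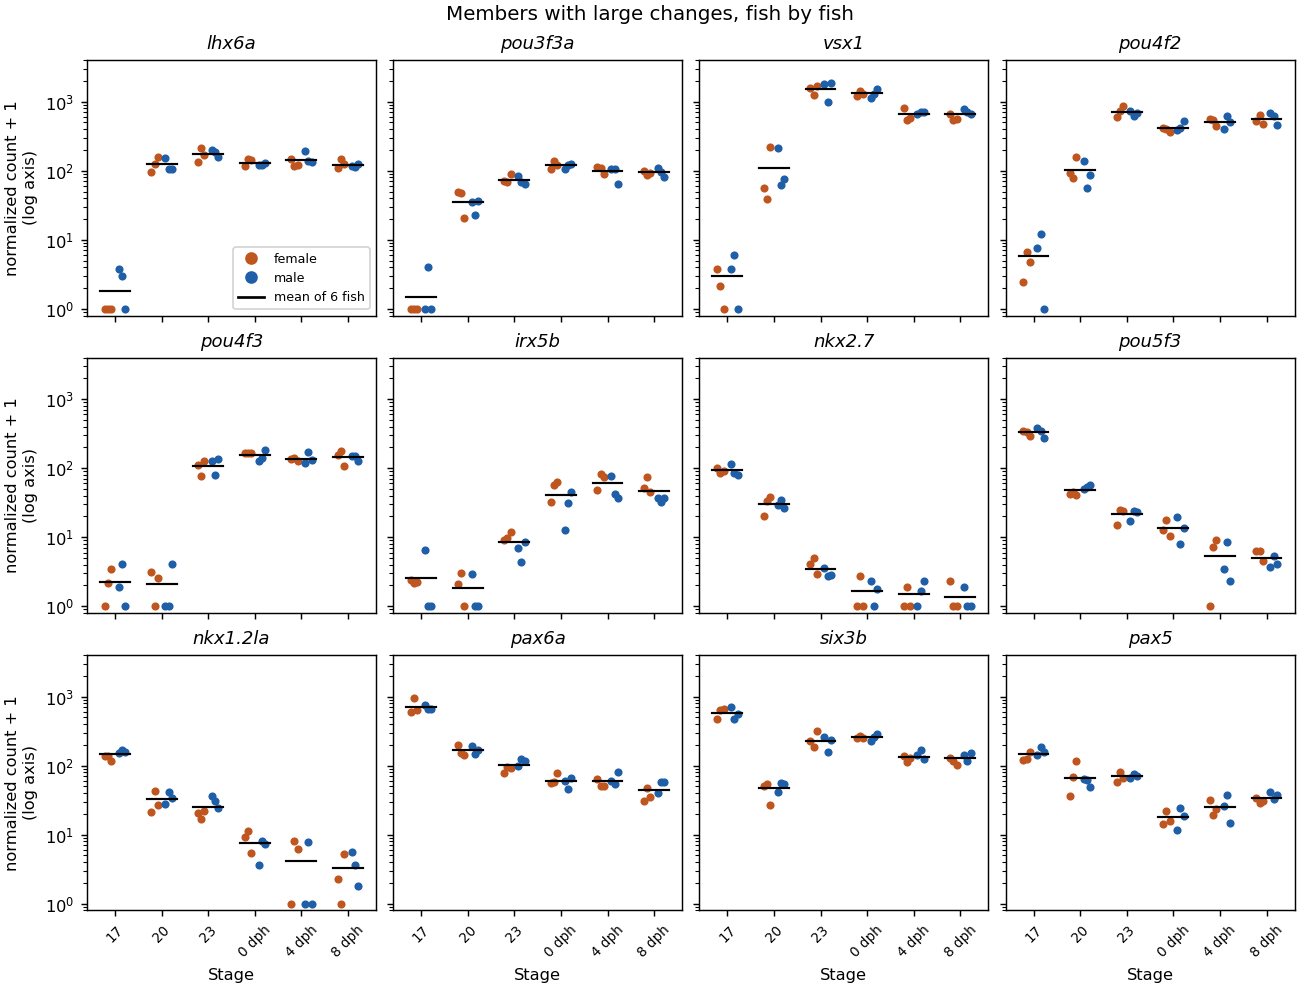
Normalized count + 1 on a log axis for 12 members with large changes, in each fish (orange females, blue males), with the mean of the 6 fish of a stage as a bar. *pou4f3* has normalized counts of 0 to 3.09 at stages 17 and 20 and above 75 from stage 23, while *nkx2.7* and *pou5f3* go down from stage 17 on.

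After hatching fewer members changed. From 0 to 4 dph 36 of 101 members were called (48.4% of all genes), and 8 of them changed by 2-fold or more (11.5% of all genes). Of the 36 called 13 rose (24.0% of all genes) and 23 fell (24.4% of all genes). Of the genes of the anterior brain and eye 6 of 22 fell (among them *pax6b*, *six3b*, *six6a*, *six7* and *vsx1*) and none was called higher. *six7* went from 842 (670 to 892) to 373 (305 to 412), a log2 fold change of -1.20 (SE 0.13), and *vsx1* from 1290 (1133 to 1546) to 689 (535 to 822), a change of -1.05 (SE 0.24). In both genes the stages did not overlap. Over the same days the summed level of the 9 photoreceptor markers went from 20800 (13100 to 23100) to 39000 (30100 to 44000). Of these markers 6 were called higher and 1, *rcvrn2*, lower, while *crx* and *arr3a* were not called. *dlx4b*, a gene of the ear and nose placodes in zebrafish, had the largest fall, from 212 (180 to 225) to 73.5 (56.9 to 97.3), a change of -1.50 (SE 0.14, adjusted p = 6.32e-10), again without overlap. *dlx3b*, which acts in the same placodes, changed by -0.60 (SE 0.14). *pou5f3* changed by -1.43 (SE 0.34), from 12.2 (7.00 to 18.6) to 4.31 (0 to 8.22), and its stages overlapped.

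Of the 13 members that rose in this interval 5 were from the list of somite, muscle and placode (*pax1a*, *pax7a*, *pax9*, *six2a* and *six4a*). In that list 5 of 7 rose (24.0% of all genes) and none fell (24.4% of all genes). *pax1a* and *pax9*, both of the vertebral column precursors and the pharyngeal pouches, changed by 0.68 (SE 0.14) and 0.58 (SE 0.14), and *six2a* by 0.49 (SE 0.10). *six9* changed by 1.26 (SE 0.39), from 3.74 (2.07 to 7.17) to 9.22 (4.11 to 15.8) with overlap, a call that was lost without the second female of 4 dph (0.98, adjusted p = 0.0566). *nkx6.3*, known from the stomach of mice, changed by 1.08 (SE 0.39), from 9.93 (5.11 to 13.3) to 26.5 (8.22 to 30.9) with overlap, and was no longer called without the second female or the third male of 0 dph or the second female of 4 dph, with an adjusted p of up to 0.202.

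From 4 to 8 dph 18 members were called, 1 higher (8.44% of all genes) and 17 lower (9.47% of all genes), and 17.9% of all genes were called in either direction. Of the members 1 changed by 2-fold or more (3.66% of all genes). Without the third male of 8 dph, 10 members were called. The median log2 fold change of the members was -0.16 and that of all genes -0.001. *alx1*, a gene of the frontonasal skeleton, went from 199 (163 to 257) to 112 (49.6 to 180), a change of -0.83 (SE 0.20, adjusted p = 0.00347). The stages overlapped over both sexes together but not within either sex. Females had 223 to 257 at 4 dph and 127 to 180 at 8 dph, and males 163 to 175 and 49.6 to 97.0. Of the 12 genes of face, fin and skeletal mesenchyme 5 fell (*alx1*, *alx4a*, *dlx1a*, *dlx2a* and *prrx1b*). *nkx2.9* changed by -1.06 (SE 0.31, adjusted p = 0.0165) and *nkx2.5* by -0.95 (SE 0.33, adjusted p = 0.0441), on a median of 5.27 and 5.64 at 8 dph, and in both the stages overlapped. The call of *nkx2.9* was lost without the third female or the third male of 4 dph or the third female of 8 dph (adjusted p of up to 0.0726). That of *nkx2.5* was lost without any one of 8 of the 12 fish of these stages (up to 0.156). *six4a*, the only member that rose, changed by 0.24 (SE 0.08, adjusted p = 0.0295) and lost its call without any one of 7 of the 12 fish (adjusted p of up to 0.103).

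Over the whole period, from stage 17 to 8 dph, 98 members were called (87.4% of all genes). Of the 98 called 49 rose (48.0% of all genes) and 49 fell (39.4% of all genes), and *irx5a*, *nkx2.4a* and *pou6f1* were not called. Among those that rose, *six3a* (0.25, SE 0.11, adjusted p = 0.0356) lost its call without any one of 6 libraries (adjusted p of up to 0.0993). By list, 16 of 23 genes of hindbrain, spinal cord and peripheral neurons rose and 7 fell. Of the anterior brain and eye 12 of 22 rose and 9 fell, and 4 of 14 cofactors and early POU genes rose and 9 fell. In the list of heart and gut organs 1 of 6 rose (*nkx1.2lb*) and 5 fell (*nkx1.2la*, *nkx2.3*, *nkx2.5*, *nkx2.7* and *pax4*). That list includes the Nkx1-2 genes, although Nkx1-2 of mice is not known from heart or gut. The 5 largest rises by the fitted log2 fold change were those of *vsx1*, *lhx6b*, *lhx6a*, *pou3f3a* and *pou4f2*, and no order among them was read since some rest on few reads at stage 17. *vsx1* went from a median of 1.97 (0 to 5.07) to 666 (534 to 790), a log2 fold change of 8.14 (SE 0.49, adjusted p = 3.87e-16). The ratio of summed levels was 343 for *lhx6b* (95% counting interval 94.6 to 2840) and 149 for *pou3f3a* (50.8 to 726). *lhx6a* had a log2 fold change of 7.85 (SE 0.34) and *pou4f2* one of 6.63 (SE 0.28). For *six9*, read once at stage 17, the ratio was 51.1 (8.85 to 2050). Among the 5 largest falls was that of *nkx2.7*, from 87.6 (79.3 to 113) to 2 reads in all 6 fish of 8 dph, a ratio of 281 (77.4 to 2330). *pou5f3* changed by -6.43 (SE 0.31), *nkx1.2la* by -5.88 (SE 0.44, and -6.63 without the third female of 8 dph), *nkx2.9* by -5.17 (SE 0.26) and *pax6a*, 1 of the duplicates of the eye and forebrain gene Pax6, by -4.11 (SE 0.16), the latter from 653 (591 to 937) to 42.4 (30.2 to 57.4) without overlap. All 5 genes of the midbrain-hindbrain boundary list fell, with a median of -1.93.

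The members that drew the most reads, *pbx4*, *pax6b*, *meis2a*, *pou2f1b* and *pou3f1*, took different courses. *pbx4* went down at each step, from 11650 (10540 to 12670) at stage 17 to 3023 (2662 to 3204) at 8 dph, a change of -2.06 (SE 0.08), although the first step was not called (-0.16, SE 0.08). *pou2f1b*, a widely expressed POU factor, changed by -1.52 (SE 0.08). *pax6b* had its highest level at stage 23, 3447 (2961 to 4511), and its lowest at 8 dph, 1901 (1695 to 2050). *meis2a* also stood highest at stage 23, at 4152 (3764 to 4764), and above every fish of all other stages. *pou3f1* stood highest at stage 20, at 3226 (2967 to 4115), again above every fish of all other stages.

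For 12 pairs of a and b duplicates the log2 ratio of a to b was taken within each fish with a pseudocount of 0.5. Since lengths were not divided out, the course of a ratio is described and not its sign. Between stage 17 and 8 dph the ranges of the 6 fish did not overlap in 7 pairs, while the same held for 67.8% of 1013 such pairs in the whole table, a share that lies above that of the members. Among the 7, the ratio of *nkx1.2la* to *nkx1.2lb* went from 5.73 (SD 1.52, n = 6) to -3.99 (SD 1.16), a difference of -9.72. *nkx1.2la* was highest at stage 17 and *nkx1.2lb* at stage 23. The ratio of *pou3f3a* to *pou3f3b* changed by 8.56, from -10.09 (SD 1.04) to -1.53 (SD 0.14), as *pou3f3a* rose and *pou3f3b* fell by 1.58 (SE 0.11). At stage 17 *pou3f3a* had 3 reads in all and a median of 0, so that ratio and its SD rest on the pseudocount. The ratio of *nkx1.2la* to *nkx1.2lb* also includes low counts, of *nkx1.2lb* at stage 17 and *nkx1.2la* at 8 dph, the lowest stage of each. It ranged from 3.98 to 8.09 at stage 17 and from -6.01 to -2.90 at 8 dph. Sizes of change were not examined with other pseudocounts.

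Other pairs changed at other times. The ratio of *irx5a* to *irx5b* changed by -4.93, from 8.13 (SD 1.43) to 3.20 (SD 0.46), with *irx5b* rising from 9 reads in all at stage 17. *irx5a* had a median of 396 (336 to 527) at stage 17 and of 416 (361 to 426) at 8 dph. The second and the third male of stage 17 had 0 reads of *irx5b*, so the ratio there and its SD rest in part on the pseudocount. The log2 fold change of *irx5b* to 8 dph was 4.48, and 4.14 to 6.72 with 1 library left out. The ratio of *pax6a* to *pax6b* changed by -3.59, from -1.87 (SD 0.11) at stage 17 to -5.14 (SD 0.30) at stage 23 and -5.46 (SD 0.30) at 8 dph. The ratio of *six3a* to *six3b* turned: it was -1.25 (SD 0.14) at stage 17, 2.34 (SD 0.51) at stage 20, 0.24 (SD 0.34) at stage 23 and 1.30 (SD 0.16) at 8 dph. *six3a* had a median of 236 to 312 at each of the 6 stages. The ratio of *nkx2.4a* to *nkx2.4b* changed by 2.49. The ranges overlapped in 5 pairs. The smallest changes between stage 17 and 8 dph were those of *irx4a* to *irx4b* (0.11), *meis2a* to *meis2b* (0.22) and *irx1a* to *irx1b* (0.45). The *irx4* ratio was not steady in between, at 0.70 (SD 1.43) at stage 17, 2.92 (SD 1.19) at stage 20 and 0.82 (SD 0.29) at 8 dph. Its values at stages 17 and 20 rest on low counts, with *irx4b* at 2.03 to 7.48 and at 2.02 to 15.3.

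**Figure D4:**
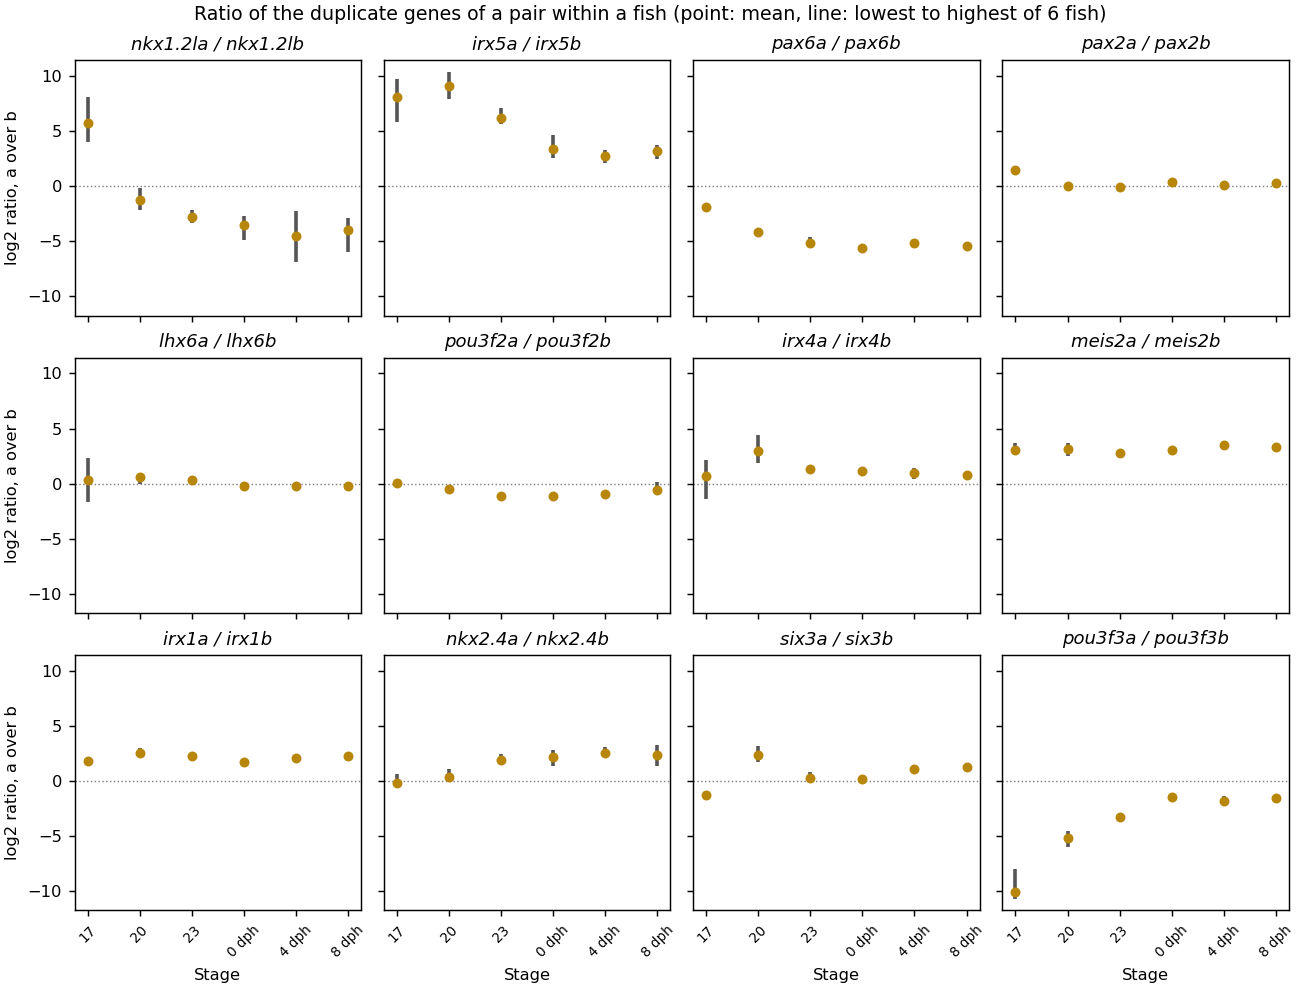
Log2 ratio of the a to the b duplicate within a fish at each stage, for 12 pairs ordered by the change from stage 17 to 8 dph (point, mean of 6 fish; line, lowest to highest). *nkx1.2l* goes from 5.73 to -3.99 and *pou3f3* from -10.09 to -1.53, while the stage means of *meis2* lie between 2.73 and 3.51.

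Between the sexes few members differed. In the tests of males against females the embryos gave 0 called members at stage 17 (4.42% of all genes) and 1 each at stage 20 (4.63%) and stage 23 (4.92%). The larvae gave 1 at hatching (4.73%), 0 after 4 days (4.73%) and 2 after 8 days (4.83%). At an unadjusted p under 0.05 there were 7 members at stage 17 (9.57% of all genes) and 1 at 4 dph (7.75%), and DESeq2 called 0 at both. Over all stages 1 member was called (6.13% of all genes). These shares of all genes include genes of the sex chromosomes. Among the 979 genes called at stage 17 were 437 genes of the X chromosome that were lower in males. Among the 1358 genes called over all stages there were 685 such genes. Only 2 of the members are placed on X, so the shares are no measure for members on other chromosomes. No member was called for a sex difference that changed between stages by edgeR (0.0451% of all genes were), 2 had an unadjusted p under 0.05 (3.78% of all genes), and DESeq2 called 0.

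The gene called at stages 20 and 23 and at 0 and 8 dph was *alx1*, which was lower in males. At stage 20 the 3 females had 349, 328 and 304 and the 3 males 172, 195 and 153, a log2 fold change of males over females of -0.93 (SE 0.27, adjusted p = 0.0405). At stage 23 the females had 313, 245 and 222 and the males 81.7, 59.4 and 189, a change of -1.25 (SE 0.27, adjusted p = 0.00172). At 0 dph the females had 271, 247 and 227 and the males 106, 149 and 119, a change of -0.999 (SE 0.27, adjusted p = 0.0216). At 8 dph the females had 127, 169 and 180 and the males 97, 95.9 and 49.6, a change of -1.0 (SE 0.28, adjusted p = 0.031). In each of these 4 stages every male lay below every female. The changes at stage 17 (-0.60, SE 0.27) and 4 dph (-0.53, SE 0.27) were not called, and here too no male reached the lowest female.

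Over all stages *alx1* had a log2 fold change of males over females of -0.88 (SE 0.11, adjusted p = 6.03e-08). The call at stage 20 was lost without any one of its 6 fish (adjusted p of up to 0.206). That at 0 dph was lost without the first or the second female or the first or the third male (up to 0.131), and that at 8 dph without the second or the third female or the third male (up to 0.327). Same-numbered females and males of 0 dph deviated together (correlations of 0.245 to 0.487 over 3 pairs), and with the number as a replicate block *alx1* was not called there (-1.01, SE 0.29, adjusted p = 0.0598). It was not called with the block at stage 20 (-0.93, SE 0.29, adjusted p = 0.0992) and 8 dph (-1.04, SE 0.31, adjusted p = 0.0751) either. At these 2 stages the numbers were not taken as pairs, with correlations of 0.018 to 0.166 and of 0.074 to 0.144. The calls at stage 23 and over all stages were not lost without any one fish or with the block, but the value at stage 23 ranged from -1.90 without the third male of that stage to -0.96. *alx1* lies on the X chromosome, of which males have a single copy, in the RefSeq gene table of another assembly of this species (fGasAcu3.hap1.1). That table places 761 of the tested genes on X. Their median log2 fold change over all stages was -0.97, and 685 of them were called lower in males. The other member that this table places on X, *irx5b*, was not called over all stages (-0.58, SE 0.22, adjusted p = 0.169). Of the 101 members 94 were found in that table.

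*nkx2.1*, a gene of the hypothalamus and the thyroid, was called at 8 dph and was higher in males. The 3 males had 118, 114 and 74.7 and the 3 females 65.6, 49.3 and 36.3, without overlap, a log2 fold change of 1.01 (SE 0.28, adjusted p = 0.0277). The sexes overlapped at each of the 5 other stages, and the call was lost without the second or the third female or the first or the second male of 8 dph (adjusted p of up to 0.295).

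**Figure D5:**
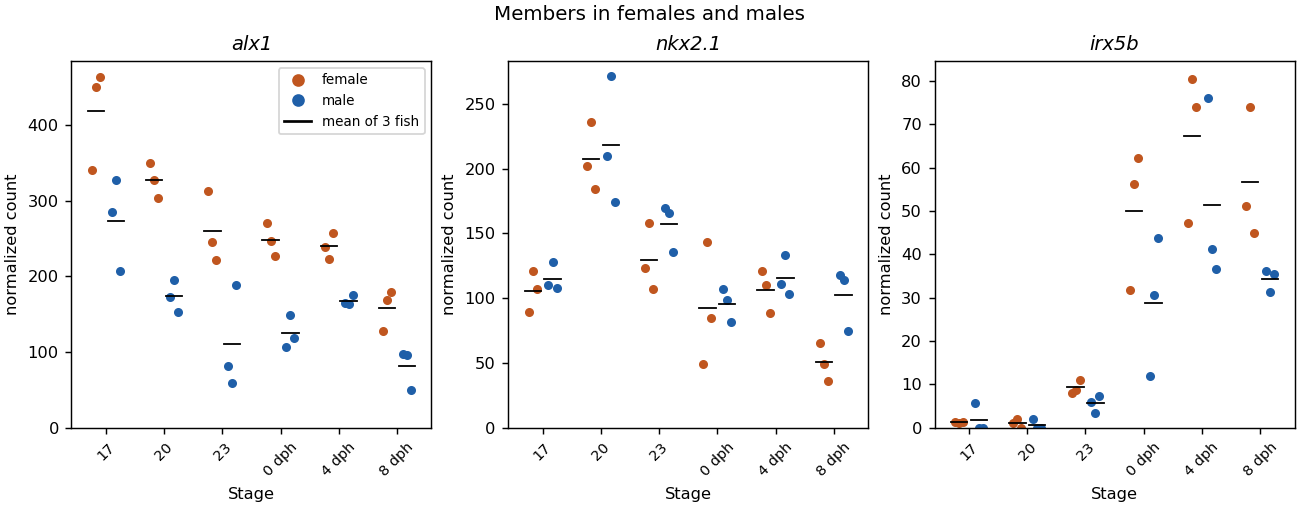
Normalized counts of *alx1*, *nkx2.1* and *irx5b* in each fish, females orange and males blue, with the mean of 3 fish as a bar. Every male lies below every female in *alx1* at each of the 6 stages, and the sexes of *nkx2.1* are apart at 8 dph only.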

How the data were processed

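RNA of 36 whole fish was sequenced with a stranded poly(A) kit, all libraries being pooled over the lanes. Trimmomatic 0.39, HISAT, SAMtools 1.17 and HTSeq 2.0.2 are named in the submitters' processing notes. The authors deposited read counts per gene, and a table of signal values in which each count was divided by a DESeq2 1.44.0 size factor (R 4.4.1). Genes with at most 9 reads in all were left out of that table. Counts were tested here with edgeR 4.0.16 (quasi-likelihood, TMM, filterByExpr on 12 groups, R 4.3.3, limma 3.58.1), with Benjamini-Hochberg adjustment over 22168 genes and calls at an adjusted p below 0.05. The scripts were tested on simulated data. The members and the lists of roles, partners and markers were chosen with earlier results of these data known. In each step between stages the 3 largest called changes each way were named, from stage 17 to 8 dph the 5 largest, with all members called between the sexes, the duplicate pairs that changed most and least and the 5 members with most reads. Some members that this rule names are not reported here. Other members given as examples were chosen after their values were seen. *pax10* and *six9* were in no list of roles. Alternatives were median-of-ratios factors, DESeq2 1.42.0, no filter, a 2-fold minimum, the 12 fish of a comparison alone, a replicate block, pseudocounts of 1 and 5 for ratios, and leaving out each of 36 libraries. The correlation of same-numbered females and males was above 0.1 in all 3 pairs at 0 dph only. The block is therefore given beside the sex test there, and at other stages as an alternative only. Counting intervals are exact 95% intervals and, like the floor of 3 reads, cover counting error only.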

Additional observations from a re-analysis of the deposited data

How the results depend on the processing

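With a change of 2-fold or more required, 52, 30, 27, 8 and 1 members were called in the 5 steps from stage 17 to 8 dph, in place of 81, 70, 76, 36 and 18. With 1 library left out the calls ranged from 76 to 81, 65 to 72, 72 to 79, 31 to 38 and 10 to 19, from 94 to 99 for stage 17 to 8 dph and from 100 to 101 for any stage. Calls between the sexes then ranged from 0 to 1 at stage 17, 0 to 2 at stage 20, 1 to 1 at stage 23, 0 to 1 at 0 dph, 0 to 2 at 8 dph and 1 to 3 over all stages (3 without the first male of stage 17), and 7 to 8 duplicate pairs did not overlap. Same-numbered females and males deviated together by a correlation of -0.128 to 0.487 over the 18 pairs of all stages. Every pair was above 0.1 at 0 dph only (0.245 to 0.487), and at the other stages the numbers were not taken as pairs. With the number as a replicate block 0, 0 and 1 members were called between the sexes at stage 20, 0 dph and 8 dph, where *alx1* had adjusted p of 0.0992, 0.0598 and 0.0751. *irx5a*, not called from stage 17 to 8 dph (-0.07), turned to 0.012 under DESeq2 and with median-of-ratios factors, and ranged from -0.138 to 0.037 with 1 library left out, the last without the second female of stage 17. Over that period the median of the members moved from -0.07 to 0.01 with either. That of all genes moved as well, from 0.24 to 0.31 with median-of-ratios factors and to 0.34 under DESeq2. Of 60 named results 11 lost a call without some library. Calls of named results were also lost in 4 cases with the 12 fish of a comparison alone and in 3 without the filter. The replicate block lost 3, DESeq2 lost 2 and median-of-ratios factors lost 1. The other counts of members kept within 1.5 times under the other alternatives. The cause of these differences was not tested. Genes with few reads, such as *six9* and *nkx2.7*, are limited by depth.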

Other observations

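The partner genes were also counted in the other steps. Of 21 measured, 10 rose and 6 fell from stage 17 to stage 20, beside 34.3% and 30.1% of all genes. From stage 20 to stage 23 9 rose and 7 fell, beside 30.2% and 28.1%. From 0 to 4 dph 1 rose and 7 fell, beside 24.0% and 24.4%, and from 4 to 8 dph 0 rose and 3 fell, beside 8.44% and 9.47%. *lmo2*, a LIM-only factor of blood and vessel precursors, changed by -2.67 on the log2 scale from stage 17 to stage 20 (SE 0.12), by -0.75 to stage 23 (SE 0.12) and by 0.70 to hatching (SE 0.12). *eya1*, a cofactor of sine oculis homeobox proteins, changed by 0.48 (SE 0.11) in the first of these steps, by -1.01 (SE 0.11) at hatching and by 0.48 (SE 0.11) from 0 to 4 dph. *six4a* and *six2a* also fell at hatching and rose from 0 to 4 dph, by 0.38 (SE 0.08) and 0.49 (SE 0.10). The other genes of these families did not follow that course. From 0 to 4 dph *six3b*, *six6a* and *six7* fell and *six3a* and *six5* were not called, while *six9* rose in both steps. Among the other *eya* genes *eya3* fell from 0 to 4 dph (-0.27, SE 0.07), and *eya2* and *eya4* were not called.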
